A study of Mus musculus with 9 samples.

Results

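The sarcomeric myosin heavy chains are the motor proteins of the muscle thick filament, and 7 of their genes were followed here in C2C12 cells treated with the hormonal form of vitamin D: Myh1, Myh2, Myh3, Myh4, Myh6, Myh7 and Myh8. They were taken by name from the gene column of the arrays, which gave 12 probes of 39429, and all 7 were among the 21908 genes tested. The groups were C2C12 cells kept for 72 h with vehicle, with calcitriol (named 1,25 (OH)2-vitamine D3 in the labels) at 1 nM, or with calcitriol at 10 nM, 3 arrays each, and the series' design text calls them biological replicates. C2C12 is a mouse myoblast line that can fuse into myotubes, and it is a single established line, so that no other muscle cell source was compared. The series title speaks of myotubes, and the labels give neither the culture medium nor the day on which the hormone was added.

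A myosin heavy chain splits ATP and pulls on actin, and the isoform built into the filament sets much of the speed and economy of the contraction. In rodents the embryonic chain (Myh3) and the perinatal chain (Myh8) come first in development, while adult fibres use the fast IIa (Myh2), IIx (Myh1) and IIb (Myh4) chains or the slow chain (Myh7), which is also the ventricular beta chain. Myh6 encodes the alpha chain, known best from the heart. Calcitriol acts through the vitamin D receptor, a nuclear receptor that pairs with a retinoid X receptor on DNA.

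The genes lie in 2 clusters. In the GRCm38.p6 assembly, the chromosome 11 cluster runs in the order Myh3, Myh2, Myh1, Myh4 and Myh8 on the plus strand, and Myh6 and Myh7 are neighbours on chromosome 14. Promoter windows from RefSeq for GRCm38.p6, covering 250 bases before to 50 bases after a start, were found for 7 of 7 members, with 2 starts for Myh7. These stretches are shown because the 4 genes moved in different directions or by different sizes, as given below, while their upstream sequences hold runs in common. Capitals mark each run of at least 9 bases that all 4 windows share. The Myh2 stretch is chr11:67170849-67170920, the Myh1 stretch chr11:67199881-67199960, the Myh4 stretch chr11:67237620-67237672 and the Myh8 stretch chr11:67277015-67277088, all read on the plus strand.
Myh2: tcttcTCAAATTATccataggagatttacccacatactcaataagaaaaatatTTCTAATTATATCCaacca
Myh1: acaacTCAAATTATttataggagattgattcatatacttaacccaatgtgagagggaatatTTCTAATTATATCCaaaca
Myh4: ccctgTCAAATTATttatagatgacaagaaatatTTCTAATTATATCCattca
Myh8: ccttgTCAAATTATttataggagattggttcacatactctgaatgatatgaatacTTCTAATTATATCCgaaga
The longer shared run has 14 bases and begins 125, 160, 158 and 54 bases before the annotated start of Myh2, Myh1, Myh4 and Myh8. Searched on both strands, it was present in 4 of all 32851 promoter windows, and those were the windows of these genes, so that Myh3, Myh6 and Myh7 lack it. The shorter run has 9 bases and was present in 59 windows. The run was found by comparing the windows with each other, and its presence is a description, not evidence of a site.

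Known motifs were counted in the same windows on both strands, and motifs could overlap each other. The MEF2 motif was present in the windows of Myh1, Myh4 and Myh8, where 3.19% of all windows hold it. The E-box CANNTG occurred in Myh3 (1), Myh4 (3), Myh8 (2), Myh6 (1) and both Myh7 windows (2 each), and in neither Myh2 nor Myh1, against 72.3% of all windows. A TATAAA sequence was found in all chromosome 11 windows and that of Myh6, against 13.6% of all windows, and in neither Myh7 window. The CArG motif of serum response factor was in the Myh4 window alone among members, against 1.63% of all windows, and the MCAT sequence CATTCC in those of Myh1, Myh4, Myh6 and 1 of the Myh7 starts, against 14.7%. The NFAT core TGGAAA was in the windows of Myh3, Myh2 and Myh1, against 21.4% of all windows. The direct repeat that vitamin D receptor dimers bind, named DR3, was in no member window and in 0.0396% of all windows.

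The probes that carry the results lie near the 3′ ends of the transcripts and begin at bases 5921 to 6023 of the records they were designed to. The first 30 of the 60 bases are given for the probes of Myh2, Myh7, Myh1 and Myh4, and the whole probe for the Myh8 probe of highest signal, all in lower case.
Myh2: tgattctattccatcctgttgtaaggaaat
Myh7: atgaggagtagctcttgtgctacccagctc
Myh1: gatgagcaaaatgtgaagatctttgtcact
Myh4: gaagaataatccatctttctgttgagaggt
Myh8: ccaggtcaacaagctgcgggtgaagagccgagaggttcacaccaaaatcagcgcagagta
In the mm9 build named in the array files they lie at chr11:67010960-67011019 (Myh2), chr14:55589581-55589640 (Myh7, minus strand), chr11:67038002-67038061 (Myh1), chr11:67073834-67073893 (Myh4) and chr11:67121925-67121984 (Myh8). The longest run of bases that probes of different members had in common was 10 bases, between Myh1 and Myh4. Whether transcripts of one member also bind the probe of another was not tested.

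The scaled level used below is the log2 processed signal minus the array's 75th percentile of that signal, which was 2825.7 to 3389.3 on the 9 arrays. No member spot was saturated. The 3rd vehicle array stood apart: it had 6124 non-uniform spots against 8 to 56 on the other arrays, and 94.8% of its spots were well above background against 65.7% to 77.7%. Dim probes tended to read high on it, and results that rest on it are given with and without it. Values within a slide are given as descriptions with no test, for Myh4 at 10 nM only and for Myh3 at neither dose. No test is given because slide 1 held 1 array of each dose beside 2 vehicle arrays, and slide 2 held the 3rd vehicle array as its only vehicle array, with 2 arrays at 1 nM and 1 at 10 nM. Fits within a slide appear only among the alternatives in the last section, where a group of 1 array is assumed to vary like the others. Levels of different probes are not compared with each other, because probes differ in how brightly they bind. Because RNA came from whole cultures, fewer cells of a type and less RNA per cell cannot be told apart.

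Most of the family moved upward with calcitriol, by amounts that ranged widely between isoforms. A gene was called where limma's adjusted p over all genes was at most 0.05. At 1 nM, 4 of 7 members were called higher and 0 lower (57.1%), where 23.7% of all genes tested were called in either direction, 11.8% higher and 11.9% lower. At 10 nM, 4 were called higher and 1 lower (71.4%), where 30.2% of all genes were called, 15.5% higher and 14.7% lower. The median log2 change of the members was 0.65 at 1 nM and 0.85 at 10 nM, beside medians over all genes of -0.09 and -0.11. At both doses that member median was the value of Myh6, which was not called and turned on the 3rd vehicle array, as given below. The members at least 2-fold higher and called were Myh2 and Myh7, 2 of 7 at each dose, where 2.08% of all genes were so at 1 nM and 3.2% at 10 nM. At both doses the 4 called higher were Myh2, Myh7, Myh1 and Myh8, and the one called lower at 10 nM was Myh4. Without the 3rd vehicle array 5 members were called at 1 nM and 6 at 10 nM, Myh6 being added. Both comparisons use the same vehicle arrays. Between the doses 0 of 7 were called (10 nM against 1 nM), where 3.84% of all genes were.

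**Figure D1:**
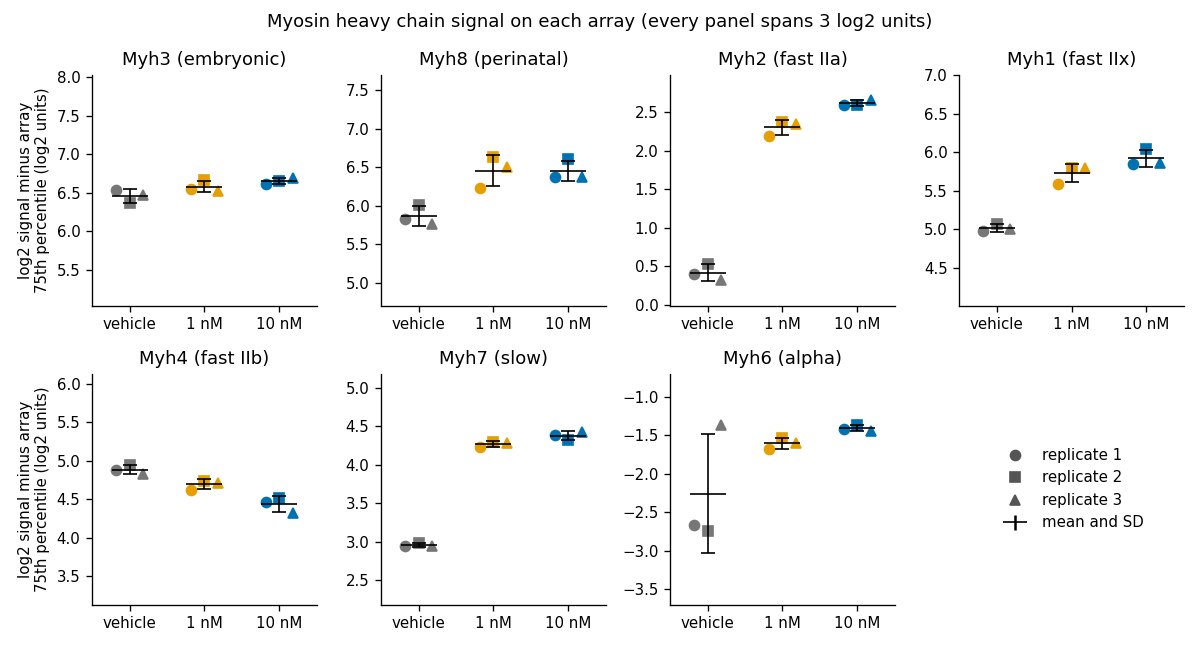
Scaled log2 signal (log2 processed signal minus the array's 75th percentile) of each myosin heavy chain on the 3 arrays of each group, with the mean and SD as black bars and one panel per gene, each spanning 3 log2 units. Myh2 and Myh7 stand clear of vehicle at both doses, Myh4 runs downward from vehicle to 10 nM, and the vehicle group of Myh6 is spread by 1 array.

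Myh2, the fast IIa chain found in oxidative fast fibres, showed the largest change of the 7 members at both doses. Its probe signal was 4420, 4514 and 3973 on the vehicle arrays, 15507, 16028 and 15102 at 1 nM and 16998, 17217 and 18365 at 10 nM. The groups did not overlap, and every 10 nM array was above every 1 nM array. Relative to vehicle, Myh2 rose 3.70-fold at 1 nM (log2 change 1.89, SE 0.08, adjusted p = 3.12e-06 by limma). At 10 nM it rose 4.59-fold (log2 change 2.20, SE 0.08, adjusted p = 9.83e-07 by limma). Arrays of the same slide gave 1.73 and 2.04 on the log2 scale at 1 nM, for slides 1 and 2, and 2.12 and 2.28 at 10 nM. The step between the doses, 0.31 with a 95% interval of 0.12 to 0.50, was not called (adjusted p = 0.104 by limma). With a trend in the spread and robust estimation its adjusted p was 0.0427, and with array weights 0.029.

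Myh1, the fast IIx chain and the neighbour of Myh2 in the genome, changed less. Its signal was 105139, 105053 and 101802 with vehicle, 163043, 170729 and 165222 at 1 nM, and 163057, 187774 and 168317 at 10 nM. All treated arrays were above all vehicle arrays, while the dosed groups overlapped in raw signal and not after scaling. Myh1 rose 1.64-fold at 1 nM (log2 change 0.71, SE 0.09, adjusted p = 0.000849) and 1.87-fold at 10 nM (0.90, adjusted p = 0.000167), by limma. Within slides 1 and 2 the change was 0.57 and 0.80 at 1 nM, and 0.83 and 1.05 at 10 nM.

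Myh4, the fast IIb chain of the fastest glycolytic fibres, fell at 10 nM, where its cluster neighbours Myh2, Myh1 and Myh8 rose. Its signal was 98441, 96555 and 90669 with vehicle, 83293, 82699 and 78183 at 1 nM, and 62412, 65380 and 57863 at 10 nM. No 2 groups overlapped, and the order was vehicle, then 1 nM, then 10 nM from high to low. At 10 nM Myh4 fell by 0.45 on the log2 scale (SE 0.08, adjusted p = 0.00346 by limma), to 0.73 times the vehicle level. At 1 nM the change was -0.19 with a 95% interval of -0.37 to -0.01 (adjusted p = 0.124 by limma). The direction depends on the scaling, since array median scaling turned these changes to 0.30 at 1 nM and 0.0773 at 10 nM, where it also moved the median over all genes to 0.38 and 0.40, so that relative to that median Myh4 stayed lower. With that scaling but without the 3rd vehicle array the 10 nM change was -0.34 (adjusted p = 0.116 by limma). With the scaling used throughout, it was -0.45 within slide 1 and -0.31 within slide 2, where it rests on the 3rd vehicle array.

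Myh7, the slow chain, stood second to Myh2 in size of change. Its signal was 25801, 24771 and 24588 with vehicle, 63517, 60867 and 58224 at 1 nM, and 59295, 57071 and 62570 at 10 nM. Each treated array was more than 2-fold above each vehicle array, and the raw signals of the 2 doses overlapped. Myh7 rose 2.49-fold at 1 nM (log2 change 1.31, SE 0.06, adjusted p = 4.01e-06) and 2.68-fold at 10 nM (1.42, SE 0.06, adjusted p = 1.74e-06), by limma. The changes on slides 1 and 2 were 1.26 and 1.35 at 1 nM, and 1.43 and 1.38 at 10 nM. The difference between the doses was 0.11, with a 95% interval of -0.03 to 0.25 (adjusted p = 0.612 by limma).

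Myh6, the alpha chain gene next to Myh7, gave a result that turned on 1 array. Its brighter probe, near the 3′ end, read 528, 468 and 1236 with vehicle, 1057, 1069 and 978 at 1 nM, and 1058, 1102 and 1066 at 10 nM. The high vehicle value belongs to the array with many non-uniform spots, and the other vehicle arrays lay below all treated arrays. With all arrays the log2 change was 0.65 at 1 nM (adjusted p = 0.214 by limma) and 0.85 at 10 nM (adjusted p = 0.0968). Without the 3rd vehicle array it was 1.097 (adjusted p = 6.96e-05) and 1.29 (adjusted p = 2.1e-05). On slide 1, which lacks that array, the changes were 1.02 and 1.29, and on slide 2, which has it, -0.20 and -0.0015. The second probe, toward the 5′ end of the transcript, was dimmer and read 91, 87 and 691 with vehicle, 93, 54 and 45 at 1 nM, and 101, 44 and 35 at 10 nM. Its changes of -1.501 and -1.534 were not called (adjusted p = 0.251 and 0.207 by limma over probes), and without the 3rd vehicle array they were -0.51 and -0.54 (adjusted p = 0.476 and 0.415).

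The cardiac identity that Myh6 often marks was checked with a list of heart genes. Of 12 listed genes 10 were measured, Hcn4 and Ryr2 were well above background on 0 arrays, and 2 were called higher and 1 lower at 1 nM, and 3 and 1 at 10 nM (2 and 1 without the 3rd vehicle array). That is 30% and 40% of the list, where 23.7% and 30.2% of all genes were called. The median log2 change of the list was 0.0062 at 1 nM and -0.13 at 10 nM. Not called at either dose were Tbx5 (-1.57 and -2.20), Myl7 (-0.85 and -1.40) and Nkx2-5 (-0.59 and -0.52). The same held for Nppa (-0.09 and -0.05), Mybpc3 (0.0978 and -0.21) and Tnnt2 (0.25 and 0.0464). Tnni3, the cardiac inhibitory troponin, was well above background on 8 arrays and rose by 1.104 at 1 nM and 1.59 at 10 nM on the log2 scale (adjusted p = 0.000318 and 3.89e-05 by limma), Actc1, the cardiac actin also made by young skeletal muscle, by 0.44 and 0.36 (adjusted p = 0.0176 and 0.0328), while the natriuretic peptide gene Nppb fell by 0.82 and 0.85 (adjusted p = 0.0131 and 0.00847). Tnni3 was fitted without 1 vehicle array, and its mean scaled level with vehicle was low, at -4.17. Gata4 was also called higher at 10 nM (0.41, adjusted p = 0.0112 by limma) and had 0.29 at 1 nM (adjusted p = 0.0588 by limma). Under array median scaling Tnni3 alone of the list was called, while Actc1 had 0.93 and 0.89 and Nppb -0.33 at both doses (adjusted p = 0.136 and 0.109, and 0.442 and 0.421 by limma). The part of these genes in the Myh6 values was not tested.

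The developmental chains moved little or moderately. Myh3, the embryonic chain, had signals of 310521, 257708 and 281083 with vehicle, 318078, 311628 and 273954 at 1 nM, and 276459, 285365 and 300658 at 10 nM on its brighter probe. These raw values overlapped among all groups, while after scaling the 10 nM arrays lay above the vehicle arrays. The log2 changes of 0.12 and 0.20 were not called (95% intervals -0.04 to 0.29 and 0.03 to 0.37, adjusted p = 0.269 and 0.0779 by limma). With the mean of both probes they were 0.28 and 0.26 and were called (adjusted p = 0.021 and 0.022), and with a trend and robust spread the 10 nM change was called too (adjusted p = 0.0388). The second Myh3 probe read 193548, 192157 and 189112 with vehicle, 247807, 257318 and 251303 at 1 nM, and 203490, 228252 and 205701 at 10 nM. On that probe the treated arrays did not overlap with vehicle, with changes of 0.43 and 0.32 (adjusted p = 0.0092 and 0.0256 by limma over 28342 probes). The 2 probes lie within the same stretch of the transcript's end, at bases 5922 and 5779.

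Myh8, the perinatal chain, rose at both doses on its brightest probe. The signal was 189612, 202314 and 173938 with vehicle, 255321, 307623 and 268914 at 1 nM, and 234024, 276922 and 241087 at 10 nM. All treated arrays were above all vehicle arrays, and the doses overlapped. The change was 1.503-fold at 1 nM (log2 change 0.59, SE 0.13, adjusted p = 0.0134) and 1.496-fold at 10 nM (0.58, adjusted p = 0.0109), by limma. At 1 nM the adjusted p was 0.0514 without the 2nd 1 nM array and 0.0542 without the 3rd. Within slide 1 the changes were 0.32 and 0.45, and within slide 2, against the 3rd vehicle array alone, 0.80 and 0.84.

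Myh8 had 3 further probes. One, at base 477 of the same transcript, read 1054, 1062 and 956 with vehicle, 1900, 1743 and 1675 at 1 nM, and 1707, 1652 and 1596 at 10 nM, a 1.77-fold and a 1.82-fold rise (adjusted p = 0.000135 and 7.23e-05 by limma over probes). It followed the direction of the brightest probe on every treated array. A probe designed to another transcript record read 575, 327 and 1889 with vehicle, the last on the array that stood apart, against 589 to 715 at 1 nM and 513 to 874 at 10 nM, and was not called at either dose. Its log2 changes were -0.13 and 0.0567 with the 3rd vehicle array and 0.59 and 0.77 without it (adjusted p = 0.177 and 0.0735 by limma over probes). The faintest was not well above background on any vehicle array, and its signal was at least 1.84-fold higher at 1 nM and at least 1.66-fold higher at 10 nM, where 2 vehicle arrays could be used, 1 non-uniform spot being left out. The spot left out, on the 3rd vehicle array, read 204, above the 42 to 59 of the treated arrays. At 10 nM 2 arrays were well above background. That probe was kept only through the 1 nM group, in which 3 arrays were well above background, so no test is given and its values are no support for a rise. These bounds set the treated mean against the lowest signal that counted as well above background on the vehicle arrays.

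**Figure D2:**
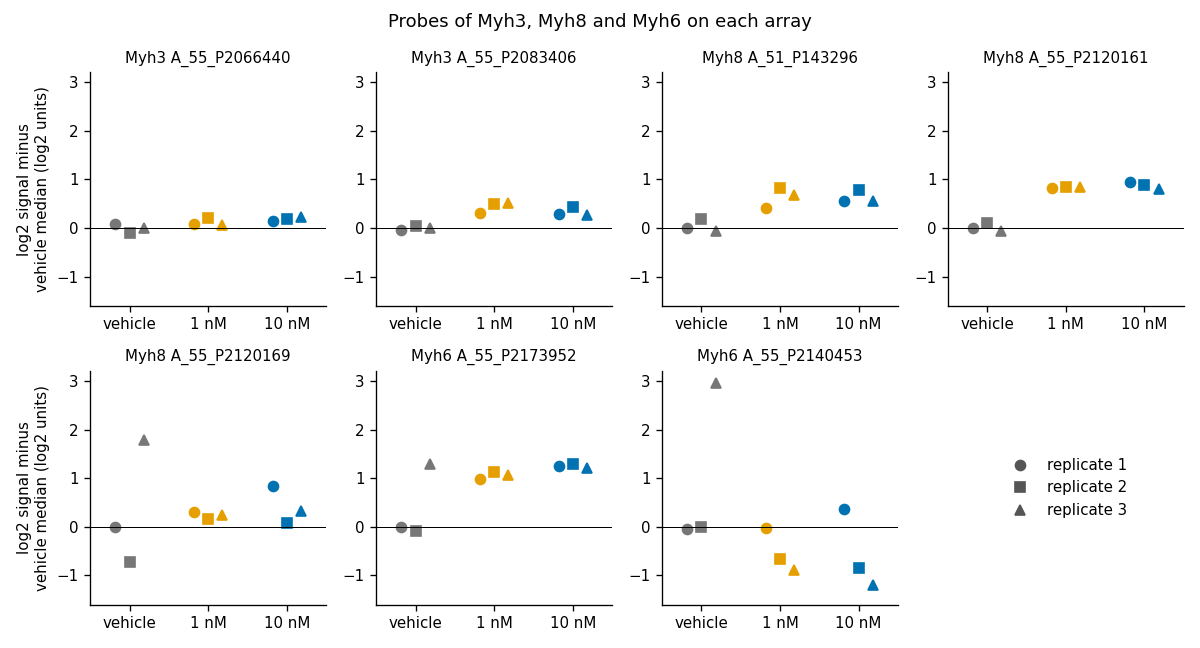
Scaled log2 signal of 7 probes of Myh3, Myh8 and Myh6 on each array, minus the median of the vehicle arrays, with marker shapes for replicate numbers. The Myh8 probe below background in vehicle is left out. The 3rd vehicle array (grey triangle) lies far above the other vehicle arrays on both Myh6 probes and on the Myh8 probe designed to another transcript record. It lies close to them on the bright probes and on the dim Myh8 probe at base 477.

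**Figure D3:**
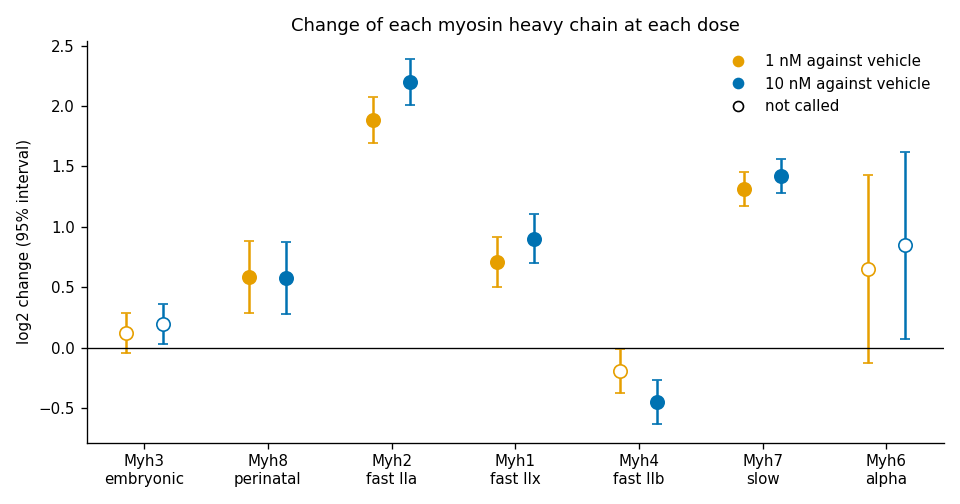
Log2 change of each myosin heavy chain at 1 nM and at 10 nM against vehicle, with 95% intervals, filled where called. Myh2 reached 1.89 and 2.20, Myh7 1.31 and 1.42, and Myh4 at 10 nM -0.45.

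Ratios between 2 members on the same array do not depend on how the array was scaled. The Myh2 signal over that of Myh4, set to a mean of 0 in vehicle on the log2 scale, was -0.0076, 0.0504 and -0.0429 with vehicle, 2.04, 2.10 and 2.10 at 1 nM, and 2.59, 2.54 and 2.81 at 10 nM. The groups were ordered without overlap. The means were 2.08 ± 0.03 at 1 nM and 2.65 ± 0.14 at 10 nM (SD, n = 3), equal to shifts of 4.23-fold and 6.28-fold. The log2 ratio of Myh4 to Myh7 had an SD of 0.04 in vehicle around its mean of 0, and was -1.51 ± 0.03 at 1 nM and -1.87 ± 0.16 at 10 nM (SD, n = 3). The ratio of Myh1 to Myh4 was 0.90 ± 0.06 and 1.35 ± 0.08, and so both other adult fast chains gained on Myh4.

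Within the gains there was a further order. Myh2 gained on Myh7 by 0.58 ± 0.06 at 1 nM and 0.78 ± 0.04 at 10 nM, against an SD of 0.09 in vehicle (n = 3). Myh1 lost to Myh2, with ratios of -1.18 ± 0.03 and -1.30 ± 0.13. The ratio of Myh1 to Myh8 was 0.12 ± 0.10 at 1 nM, little more than the SD of 0.09 in vehicle, and 0.32 ± 0.02 at 10 nM. With 3 arrays against 3, an exact two-sided permutation test of such a ratio cannot give a p below 0.1, so none is given.

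**Figure D4:**
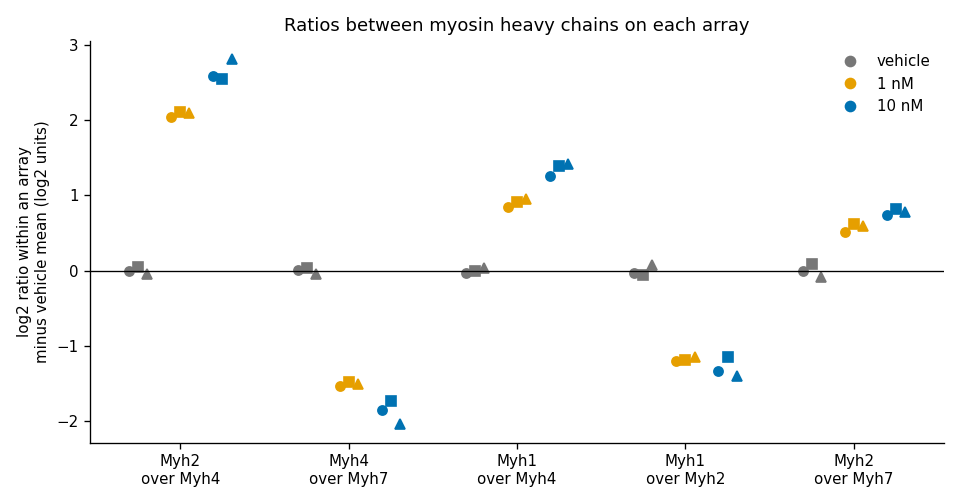
Log2 ratio of the signals of 2 myosin heavy chains on the same array, minus the vehicle mean, for each array. Myh2 over Myh4 reached 2.54 to 2.81 at 10 nM and Myh4 over Myh7 -1.73 to -2.04, with no overlap between groups in either.

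No member separated the doses by the test across genes, although the order of the arrays did for most. In 10 nM against 1 nM, 4 members lay wholly higher, 1 wholly lower and 2 overlapped in scaled level, where 24% of all genes did not overlap. The corresponding counts against vehicle were 5 of 7 at 1 nM and 6 of 7 at 10 nM without overlap, where 42.5% and 43.8% of all genes had none. The 95% interval of the difference between doses ran from -0.01 to 0.40 for Myh1, from -0.44 to -0.08 for Myh4 and from -0.30 to 0.29 for Myh8. Same replicate numbers of the 2 doses were taken as pairs, although number and slide partly coincide. With the replicate block 460 genes were called between the doses in place of 841, and again 0 members. The count over all genes was 435, 388 and 365 without 1 nM replicate 1, 2 and 3, 466, 435 and 421 without 10 nM replicate 1, 2 and 3, and 1267 without vehicle replicate 3. In every one of these 0 members were called.

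Over the 9 arrays the levels of Myh1, Myh2, Myh7 and Myh8 ran together and that of Myh4 ran opposite, which restates the group differences because the arrays fall into 3 groups. Pearson's r was 0.997 between Myh2 and Myh7, 0.983 between Myh2 and Myh1, and -0.83 between Myh2 and Myh4. Among 14591 other named genes measured on all arrays, those most like Myh2 were Smim4, Enpp3 and F11r (r 0.997 to 0.998), and those most like Myh7 were Syt13, Rap1gap and Slc1a6 (r 0.998). Myh1 was most like Cryab (r 0.995), a small heat shock protein of muscle, followed by Tnk2 and Dapk2. Myh4 was most like Stk40, Chrne and Pcbd1 (r 0.977 to 0.993), where Chrne encodes the adult epsilon subunit of the acetylcholine receptor. For Myh8 the nearest were Zfc3h1, Ramac and Ccdc174, for Myh3 Pex13, Senp2 and Mrpl27, and for Myh6 Cfap97d2, Cacna2d3 and Ccl6. The Myh6 levels turned on the 3rd vehicle array. The 1 nM changes of its nearest genes had SEs of 0.61, 1.04 and 0.59, beside a median of 0.13 over all genes. The part of that array in their likeness was not tested.

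Genes of proteins that sit on the thick filament with myosin were called higher more often than lower. Of 18 measured genes 11 were called higher and 0 lower at 1 nM, with a median log2 change of 0.49, and 12 higher and 1 lower at 10 nM, with a median of 0.45. The one lower was Mylk4, at -1.14 (adjusted p = 0.0133 by limma), with -0.53 at 1 nM (adjusted p = 0.198 by limma). Over all genes, 11.8% were called higher and 11.9% lower at 1 nM, and 15.5% and 14.7% at 10 nM, and these shares hold beside the counts of each list that follows. Array median scaling, which raised the changes of most genes and called fewer, left 5 of the 18 at 1 nM and 8 at 10 nM called higher and 0 lower. Myl2 and Myl3, the regulatory and essential light chains that pair with the slow heavy chain, rose by 1.59 and 1.30 at 1 nM and by 1.58 and 1.39 at 10 nM (adjusted p at most 0.000918 by limma). Mybpc1, the slow myosin binding protein C, rose by 0.94 and 0.97, and Myom3, an M-band protein, by 0.67 and 0.71. Ttn, the giant spring along the filament, rose by 0.68 and 1.02. Mylk2, the skeletal kinase of the fast light chain, was called between the doses too, at 0.37 and 0.82 against vehicle and 0.45 between them (adjusted p = 0.0207 by limma).

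The slow and the fast partners of the sarcomere are listed apart, since Myh7 rose and Myh4 fell at 10 nM. Of 12 slow genes 10 were called higher and 1 lower at 1 nM (median 0.69), and 9 and 1 at 10 nM (median 0.59). Under array median scaling Ankrd2, Atp2a2, Mybpc1, Myl2 and Myl3 were called higher at both doses, 5 of 12, and 0 lower. Ankrd2, a stretch-responsive protein richest in slow fibres, rose by 1.14 at 1 nM and 2.11 at 10 nM and was called between the doses too (0.97, adjusted p = 0.00213 by limma). Atp2a2, the slow calcium pump, rose by 0.86 and 1.20. The one called lower was Tpm3, tropomyosin of slow muscle and of non-muscle cells, at -0.46 and -0.38 on its brightest probe (higher in sign, by 0.03 and 0.15, under array median scaling), whereas its other probes gave 0.95 and 0.78 at 1 nM and 1.27 and 1.05 at 10 nM.

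Of 12 fast genes 5 were called higher at 1 nM (median 0.35) and 6 at 10 nM (median 0.39), and 0 lower at either dose. The fast alpha-actinin Actn3 rose by 0.62 and 0.67, the fast troponins Tnnt3 by 0.46 and 0.59 and Tnni2 by 0.33 and 0.46, and Tnnc2 by 0.49 and 0.39. The light chain Myl1 was called at 10 nM, at 0.40 on its brightest probe, which had 0.23 at 1 nM. Its second probe gave 0.76 at both doses. Without the 3rd vehicle array 3 were called at 1 nM and 6 at 10 nM, and under array median scaling 1 (Actn3) and 2 (Actn3 and Mylk2). Whether the slow list moved more than the fast list was not tested.

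**Figure D5:**
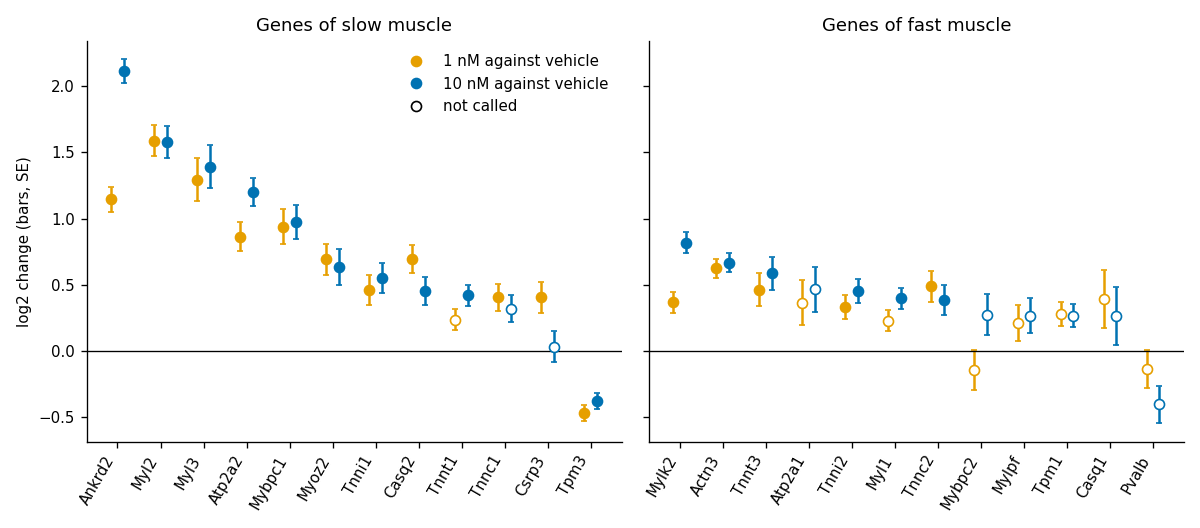
Log2 change, with SE, of 12 slow and 12 fast sarcomere genes at 1 nM and 10 nM against vehicle, filled where called. Ankrd2 reached 2.11 at 10 nM, the slow light chains Myl2 and Myl3 lay between 1.30 and 1.59, and the fast gene with the largest change, Mylk2, reached 0.82.

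Genes that fold myosin or take it apart were followed as a list of 11. At 1 nM 5 were called higher and 0 lower, and at 10 nM 6 and 0. Under array median scaling 1 was called at 1 nM, Trim63, and 4 at 10 nM, Trim63, Fbxo32, Cryab and Unc45b. Trim63, a ubiquitin ligase of muscle that acts on thick filament proteins, rose by 1.04 and 1.52, Fbxo32, another atrophy ligase, by 0.60 and 0.56, and Trim54 by 0.56 and 0.40. The chaperone Hsp90aa1 rose by 0.27 and 0.45 and Cryab by 0.45 and 0.61. Unc45b, the muscle chaperone of the myosin head, was called at 10 nM (0.57, adjusted p = 0.00708 by limma) and had 0.36 at 1 nM (adjusted p = 0.0599).

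Of the related heavy chains, 5 of 7 listed genes were measured. Myh7b, a slow-type chain gene of heart and some muscles, rose by 1.13 at 1 nM and 1.27 at 10 nM on the log2 scale (adjusted p = 0.000175 and 6.57e-05 by limma). Myh9, the non-muscle chain, fell by 0.53 and 0.65 on its brightest probe (adjusted p = 0.00878 and 0.00246 by limma), a call lost under array median scaling (-0.0359 and -0.12). Its second probe gave -0.0754 and -0.18. Myh3 hosts mmu-miR-6923-5p in RefSeq for GRCm38.p6, which is not shown. Myh7, Myh6 and Myh7b each host a microRNA there too, and their mature sequences are shown because 2 of these 3 host genes rose. Capitals mark the seed, bases 2 to 8. The first is hosted by Myh7 (chr14:54975710-54975731, minus strand), the second by Myh6 (chr14:54949072-54949093, minus strand) and the third by Myh7b (chr2:155622893-155622913, plus strand).
mmu-miR-208b-3p: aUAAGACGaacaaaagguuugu
mmu-miR-208a-3p: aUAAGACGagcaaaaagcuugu
mmu-miR-499-5p: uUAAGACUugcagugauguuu
The miR-208 pair share a seed, and that of miR-499-5p differs from it in the last base alone. The microRNAs themselves were not analysed here.

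Known regulators of myosin genes were called in both directions. Of 36 listed genes 33 were measured, 9 were called higher and 3 lower at 1 nM, and 10 and 5 at 10 nM, with median changes of 0.22 and 0.12. Under array median scaling 3 were called higher and 0 lower at 1 nM (Mef2a, Myf6 and Ppargc1a), and 7 and 1 at 10 nM, the one lower being Nfatc2. The myogenic factors Myod1 and Myf6 rose, by 0.66 and 0.89 and by 0.93 and 1.14, and Mef2a, which binds the MEF2 motif, by 0.81 and 0.83. The myogenic factor Myog, the myotube marker called lower at 10 nM, had -0.43 there (adjusted p = 0.00285 by limma). At 1 nM it had -0.13 (adjusted p = 0.225 by limma). Under array median scaling Myog had 0.36 and 0.10 (adjusted p = 0.49 and 0.841 by limma). Eya3, a transcriptional coactivator, rose by 0.71 and 0.92, and Ppargc1b, a coactivator of oxidative genes, by 0.96 at 10 nM and by 0.62 between the doses (adjusted p = 0.0404 by limma). Vgll2, a cofactor of TEAD proteins in muscle, fell by 0.82 and 0.88 (-0.33 and -0.35 under array median scaling, adjusted p = 0.49 and 0.435 by limma), and Nfatc2, a calcineurin-responsive factor, by 1.44 and 1.65, its second probe by 0.42 and 0.74.

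Markers of cell types were called in different directions. The 12 myotube markers had 6 called higher and 0 lower at 1 nM and 6 and 1 at 10 nM, with median changes of 0.43 and 0.34 (5 and 0, and 4 and 1, without the 3rd vehicle array), and a summed level of 366.8 to 417.3 times the 75th percentile signal with vehicle, 475.3 to 531.1 at 1 nM and 464.1 to 497.1 at 10 nM. Of 11 markers of cycling myoblasts 10 were called lower at each dose, and their summed level was 47.2 to 48.3 with vehicle, 3.05 to 3.58 at 1 nM and 2.16 to 2.25 at 10 nM, so that no array of a treated group came near vehicle. Of 9 measured smooth muscle and fibroblast markers 2 were called higher and 7 lower at each dose, with summed levels of 351.8 to 376.3 with vehicle, 241.1 to 257.3 at 1 nM and 208.2 to 218.4 at 10 nM. Of 6 adipocyte markers 3 were called higher at 1 nM and 4 at 10 nM, with summed levels of 1.103 to 2.21 with vehicle, 4.39 to 4.52 at 1 nM and 9.11 to 9.62 at 10 nM. Array median scaling called 0 myotube markers at 1 nM and 2 higher at 10 nM (Ttn and Neb), 9 cycling markers lower at each dose, and 4 adipocyte markers higher at each dose. Of the smooth muscle and fibroblast markers it called 1 higher and 2 lower at 1 nM, and 1 and 4 at 10 nM. The part of these markers in the myosin results was not tested.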

How the data were processed

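Total RNA of 9 C2C12 samples was labelled with Cy3 and hybridised to 1-colour arrays of 44397 spots. Per the file headers, the deposited scanner files hold linear intensity columns of processed, mean and background signal. The submitters' processing notes name Agilent Feature Extraction, version 11.5.1.1, as the software. Other deposited columns are 0 or 1 marks of spot quality, per the file headers. The deposited series table holds log2 values. It correlated at 0.9999 with values made here by normexp and quantile normalization, had column medians of 9.65 to 9.73, so its genes were not centred, and served as an alternative.

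The main value was log2 of the processed signal minus the array's 75th percentile. Control spots and non-uniform spots were left out. A probe was kept where all 3 arrays of a group were well above background (28342 of 39429), and the brightest kept probe stood for a gene. Groups were compared with limma 3.58.1 in R 4.3.3, in 1 fit without a block and with Benjamini-Hochberg adjustment over 21908 genes (20136 without a missing array). Myh8's faintest probe and Tnni3 were each fitted without 1 vehicle array. The number of arrays limits the precision. The procedure was tested on simulated data.

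The members and lists were chosen with earlier results of these data known. All members were named, with up to 6 called genes per list and comparison by smallest p, or the 2 highest where none was called, and the 3 genes most alike to each member. Tpm3, Nfatc2, Myh9 and Myl1 probes were added because probes of those genes disagreed. Second probes of other listed genes are not all given.

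Same-numbered arrays of the 2 doses deviated together from their group means across genes (r 0.484, 0.33 and 0.141), so these numbers were taken as pairs, which no label states. Arrays 10 nM 2 and 1 nM 3, which share slide 2, had an r of 0.309. The number 1 arrays shared slide 1 and the number 2 arrays slide 2, so number and slide cannot be told apart there. The vehicle numbers did not pair. Slide 1 held vehicle 1 and 2, 1 nM 1 and 10 nM 1, slide 2 held vehicle 3, 1 nM 2 and 3 and 10 nM 2, and slide 3 held 10 nM 3. Alternatives covered background correction, scaling, filters, probe choice, spread, blocks, slides and left-out arrays. For 1 array the header names no build, and some of its gene names were altered, so names came from the other arrays. Exons and UTRs at the probes were not analysed here.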

Additional observations from a re-analysis of the deposited data

How the results depend on the processing

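Myh2 and Myh7 were called at both doses under all 29 alternatives, with log2 changes of 1.73 to 2.38 and 1.25 to 1.80 at 1 nM, and 2.11 to 2.73 and 1.34 to 1.95 at 10 nM. The calls of Myh1 ended only within slide 1 at 1 nM, where 1 treated array is set against 2, and under the 2-fold threshold. The number of arrays limits what could be called within a slide, where a group of 1 array is assumed to vary like the others. With at least 2-fold required, 2 members were called at each dose. Between the doses 1 member was called with a trend and robust spread, and 2 with array weights, whose estimation stopped short of its tolerance. The call of Myh8 held under 21 of the 29 alternatives at 1 nM and 24 at 10 nM. Its lowest changes, -0.0058 and 0.0114, came with the mean of a gene's probes. For Myh4 the call at 10 nM held under 24. Array median scaling called 4 members at each dose, with Myh6 in and Myh8 out, and Myh4 out at 10 nM. The counts of lists under that scaling, and the counts of lists and values of single probes without vehicle replicate 3, were chosen after seeing the data. Without each array in turn, 3 to 5, 5 to 6 and 0 members were called at 1 nM, at 10 nM and in 10 nM against 1 nM, together with 3506 to 5568, 5092 to 7138 and 365 to 1267 genes.

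Reversed directions were these. Under array median scaling Myh4 had 0.30 at 1 nM and 0.0773 at 10 nM. With the mean of a gene's probes, Myh6 had -0.42 and -0.34, Myh8 -0.0058 at 1 nM and Myh3 -0.0183 between the doses, and within slide 2 Myh6 had -0.20 at 1 nM and -0.0015 at 10 nM. Myh8 between the doses, -0.0064 and never called, became 0.0545 with normexp and quantile normalization, 0.054 with the series table, 0.0526 with the slide as a block, 0.0414 with normexp and 75th percentile scaling, 0.0119 with quantile normalization, 0.0171 with the mean of probes, 0.14 within slide 1, 0.0362 within slide 2, and 0.0318 under array median scaling with or without vehicle replicate 3. Without 1 array it ranged from -0.12 to 0.0845.

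In the same order of comparisons, counts over all genes were 5184, 6614 and 841. They became 1511, 2532 and 58 under array median scaling, 11457, 10412 and 1883 with array weights, 1594, 2575 and 5 within slide 1, 10421, 9983 and 0 within slide 2, 3093, 4331 and 370 at an adjusted p of 0.01, and 1453, 2041 and 164 with at least 2-fold. Between the doses alone the count moved by over 1.5 times to 514 with normexp and quantile normalization, 556 with quantile normalization, 423 in the series table, 537 with no filter, 1350 with only the compared groups fitted, 355 with the slide as a block and 460 with the replicate block. The block changed no call of a member. The share of calls that were higher, 49.8%, 51.3% and 41.7%, became 62.2%, 67.1% and 69% under array median scaling, 39%, 46.7% and 20% within slide 1, 26.7% and 28% within slide 2, and 31.3% and 34.3% with at least 2-fold at 1 nM and 10 nM. The causes were not tested.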
